A study of Mus musculus with 6 samples.

Results

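The 10 genes described here encode the interleukin-6 (IL-6) cytokine axis: the ligands Il6, Il11 and Lif, the receptor subunits Il6ra, Il11ra1, Lifr, Osmr and Il6st (gp130), the transcription factor Stat3, and the feedback inhibitor Socs3. They were chosen by symbol, and all 10 were found by Ensembl identifier among the 29616 genes of the table. RNA was compared between 3 control libraries and 3 libraries from mice given the synthetic glucocorticoid dexamethasone. The labels give the strain C57BL/6 for every library of both groups. By the methods, treatment began at 8 weeks of age and lasted 4 weeks, with 0.08 µg/g each day, and saline is named for the controls of the model in its bone imaging. The labels call the material bone cells, and the study's text describes Osteocalcin-positive cells from bones without marrow, with fixation and permeabilization of cells for gene expression analysis. Neither source says whether a library holds 1 mouse or several, so p-values measure the spread between these libraries, which may be technical.

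Cytokines of this family bind a ligand-specific receptor subunit and then recruit gp130, the subunit they share. IL-6 and IL-11 act through IL6RA and IL11RA with gp130, whereas LIF acts through LIFR paired with gp130 and oncostatin M, in mice, mainly through OSMR paired with gp130. The receptors activate JAK kinases, which phosphorylate STAT3, and STAT3 induces SOCS3, which in turn blocks gp130 and the kinases bound to it. In bone, cells of the osteoblast lineage both secrete and sense these cytokines, which take part in bone formation and in the support of osteoclasts.

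Depth was 72596611 to 89910728 recovered reads per library. Dexamethasone replicate 3 stood somewhat apart from the other libraries of its group, with chi-square values per degree of freedom of 18.1 and 26.1 against them, where the other pairs within groups had 3.27 to 7.44. Of 11 osteoblast markers in the table, 8 fell and 3 rose, where 35.2% of all tested genes fell and 37.2% rose. Their sum was 2009100 to 2137790 normalized counts in the control and 2010800 to 2142750 in the dexamethasone libraries. Col1a1 and Col1a2 made up most of it in the control, and Spp1 in the dexamethasone libraries. Osteocalcin (Bglap) had 104 to 139 reads in the control and 10 to 13 reads in the dexamethasone libraries. Its copy Bglap2 had 340 to 369 and 28 to 31 reads. The type I collagen gene Col1a1 also fell, but had 212712 reads or more in every library. The risers were Dmp1, from 39 to 45 up to 4585 to 6270 reads (143-fold), Spp1 (38.1-fold) and Phex (1.51-fold). Ptprc (CD45), which defines blood cells, had 2 to 5 reads per library, although the blood-cell genes Cd53 and Itgb2 rose (values are given with Il6ra), and Cdh5, which defines endothelial cells, had 0 to 2. Of 9 endothelial markers listed, 7 were in the table. They summed to 6465 to 6697 normalized counts in the control and 8416 to 9551 in the dexamethasone libraries. Flt1 and Vwf made up most of both sums. Of the 5 endothelial markers tested, 4 rose and 0 fell, where 37.2% of all tested genes rose. These were Vwf (1.69-fold), Pecam1 (1.67-fold, on 11 to 31 reads per library), Flt1 (1.23-fold) and Kdr (1.19-fold). The other tested marker, Tek, had a log2 fold change of -0.75 (adjusted p = 0.146), on 3 to 16 reads per library. Tie1, not tested, had 0 to 3 reads. The 6 adipocyte markers summed to 9.79 to 12.3 and 1412 to 1526, the latter nearly all Fabp4. The part of either marker set in the results was not tested. In RNA from many cells, fewer cells that express a gene and less RNA of that gene per cell cannot be told apart.

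Most genes of the axis differed between the groups, in both directions. With dexamethasone Il6ra rose 4.53-fold and Lifr fell to a level 2.60-fold lower. Il11 and its receptor Il11ra1 were 2.11-fold and 1.72-fold lower. Smaller differences were found for Lif, Stat3 and Osmr, the direction of Il6st depended on the scaling, and Il6 and Socs3 did not pass the test. Of the 10 genes, 3 rose, with Il6st among them, and 5 fell at an adjusted p under 0.05 (limma on log2 of the normalized count plus 1), against 37.2% of all 17442 tested genes that rose and 35.2% that fell, 72.5% in all. Differential expression, which also required a change by 1 or more on the log2 scale, up or down, was called for 3 of the 10 (Il6ra, Lifr and Il11) and for 22.3% of all tested genes. The groups did not overlap for 8 of the 10 genes and for 74.7% of all tested genes, so these shares are near the background. The median log2 fold change of the 10 genes was -0.12, beside 0.0007 over all genes tested.

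**Figure D1:**
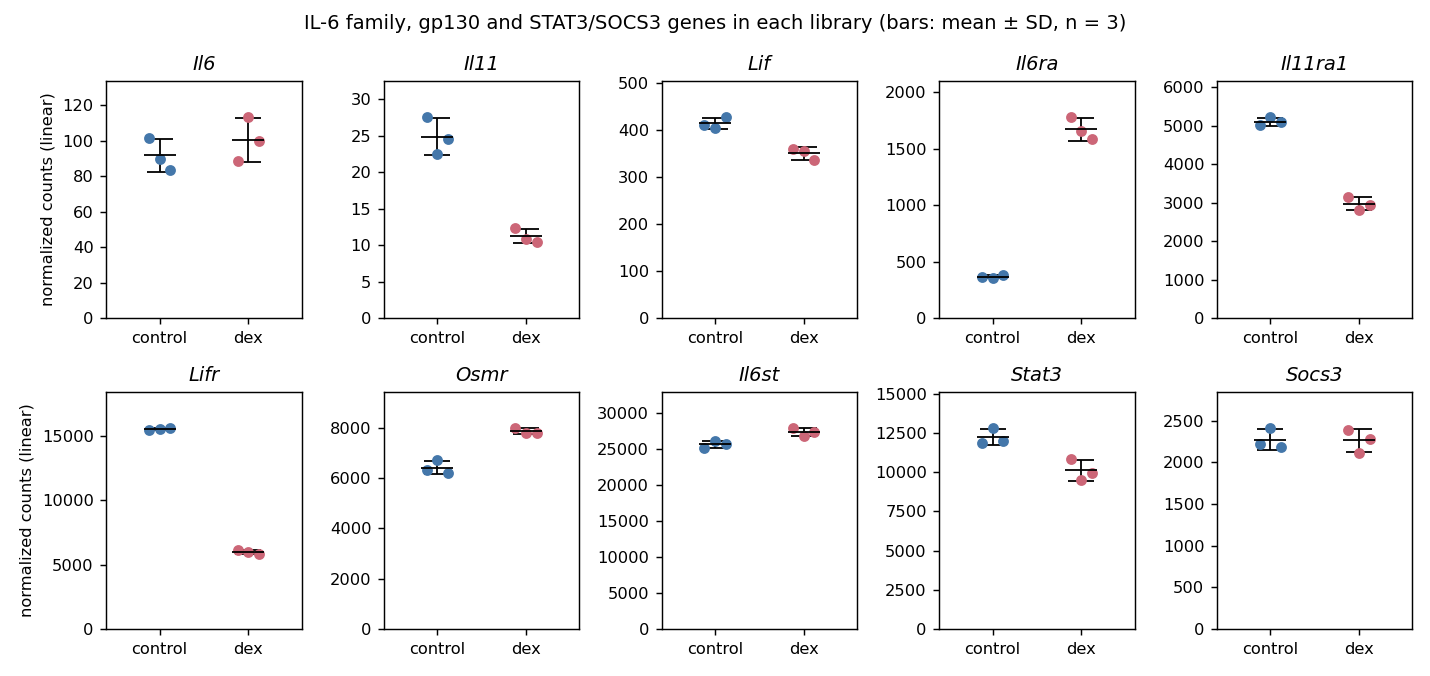
Normalized counts (linear axis from 0, a separate scale for each gene) of the 10 genes in the 3 control (blue) and 3 dexamethasone (red) libraries; points are libraries and bars the mean ± SD. Il6ra moved from 359 to 381 up to 1584 to 1781 and Lifr from 15462 to 15648 down to 5801 to 6152, whereas the points of Il6 and Socs3 overlap.

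Among the ligands, Il6, the founding cytokine of the family, was measured at 102, 90.0 and 83.5 normalized counts in control replicates 1, 2 and 3. It was measured at 88.7, 113 and 99.9991 in dexamethasone replicates 1, 2 and 3. The groups overlapped, and the log2 fold change of 0.13 had a 95% interval of -0.19 to 0.45 (adjusted p = 0.461). These values rest on 86 to 111 reads per library.

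Il11, a cytokine that promotes osteoblast differentiation, had 27.5, 22.5 and 24.6 normalized counts in the control libraries. In the dexamethasone libraries it had 12.4, 10.9 and 10.5. Every dexamethasone library lay under every control library. The group means were 24.9 ± 2.53 and 11.3 ± 1.02 (SD, n = 3), and the log2 fold change was -1.08 with a standard error of 0.32 (adjusted p = 0.00426). Only 23 to 30 reads and 9 to 13 reads per library underlie it, and its 95% interval ran from -1.74 to -0.42. The log2 fold change was -0.88 with a pseudocount of 5 and -0.97 after quantile normalization, both short of the limit of 1.

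Lif, named for inhibiting leukaemia cells, had 412, 405 and 428 normalized counts in the control libraries and 359.6, 356 and 336 in the dexamethasone libraries. The groups did not overlap, yet the decrease was small: the log2 fold change was -0.24 (95% interval -0.41 to -0.08, adjusted p = 0.00803).

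Among the ligand-specific receptor subunits, Il6ra had the largest change of the axis. Il6ra, which binds IL-6 and confers responsiveness on a cell, had 364, 359 and 381 normalized counts in the control libraries. It had 1781, 1657 and 1584 in the dexamethasone libraries, all far above the highest control library. The means were 368 ± 11.8 and 1674 ± 99.7 (SD, n = 3), with a log2 fold change of 2.18 (standard error 0.06, adjusted p = 2.62e-20), higher than that of 96.1% of the tested genes. Of its exon bases 2.80% overlap Gm42809 on the opposite strand, and since the strand setting of the counting is not stated, reads of the pair cannot be told apart there.

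Il6ra is also made by monocytes, neutrophils and some lymphocytes, so their markers were read in the same libraries. Of the 8 pan-hematopoietic markers, 6 were tested. Of these, 3 rose and 2 fell, where 37.2% of all tested genes rose and 35.2% fell. Cd53 rose 17.3-fold, from 13 to 22 up to 240 to 284 reads, and Itgb2 9.17-fold, from 51 to 71 up to 442 to 520 reads, whereas Laptm5 and Coro1a fell and Ptprc stayed at 2 to 5 reads. Their summed level, 6707 to 6968 normalized counts in the control and 8112 to 8609 in the dexamethasone libraries, was mostly that of Arhgdib, which rose 1.11-fold. Of the 5 macrophage and monocyte markers in the table, Cd68 rose 3.42-fold and Cd14 2.31-fold, Csf1r and Lyz2 fell, and Fcgr1 had 0 to 3 reads. Their sum was 1467 to 1483 in the control and 1464 to 1655 in the dexamethasone libraries. The 7 neutrophil markers summed to 926 to 971 and to 1034 to 1192, S100a8 being the one that rose, 1.83-fold, and Ly6g had 0 to 2 reads. The 5 lymphocyte markers summed to 11.9 to 16.6 and 7.63 to 11.6, none with enough reads for the test. Il6ra itself had 367 to 434 reads in the control and 1362 to 1867 reads in the dexamethasone libraries. The part of other cell types in its rise was not tested.

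Il11ra1, the receptor subunit for IL-11, fell from 5012, 5216 and 5079 normalized counts to 3155, 2816 and 2949. The means of 5102 ± 104 and 2973 ± 171 (SD, n = 3) gave a log2 fold change of -0.78 (standard error 0.04, adjusted p = 1.63e-14), under the limit for differential expression. This count is uncertain, because 64.1% of the distinct 75-base stretches of its transcripts are its own in the GENCODE M21 annotation, while the rest are shared with the near-identical copies Il11ra2 and Gm13305. Receptor and ligand of the IL-11 pair were thus both lower in every dexamethasone library than in every control library.

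Lifr, the receptor subunit for LIF, had 15462, 15541 and 15648 normalized counts in the control libraries. In the dexamethasone libraries it had 6152, 5972 and 5801. The libraries of each group lay close together and far from the other group, with means of 15550.2 ± 93.4 and 5975 ± 175 (SD, n = 3). Its log2 fold change of -1.38 (standard error 0.03, adjusted p = 2.29e-21) was lower than all but 6.13% of the tested genes.

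Osmr, the related subunit that binds oncostatin M, went the other way, from 6325, 6720 and 6202 normalized counts to 7997, 7797 and 7794. Its log2 fold change was 0.29 (standard error 0.04, adjusted p = 1.4e-07), and it was 0.08 at its lowest over the alternatives, after quantile normalization.

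Il6st (gp130), which all these receptors share, had 25099, 26116 and 25634 normalized counts in the control libraries and 27875, 26760.2 and 27260.2 in the dexamethasone libraries. The log2 fold change of 0.09 (95% interval 0.02 to 0.16, adjusted p = 0.0233) was -0.02 when all libraries had equal totals and -0.04 under quantile normalization. Its direction therefore depended on the scaling, and under either of these settings 2 of the 10 genes were higher and 6 lower, Socs3 being the 6th. It also lost its call without control replicate 1 (adjusted p = 0.0952), control replicate 3 (0.0788) or dexamethasone replicate 3 (0.0588), with edgeR (0.0507) and with limma lacking the trend (0.0617). Over all alternatives its log2 fold change stayed between -0.04 and 0.11.

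**Figure D2:**
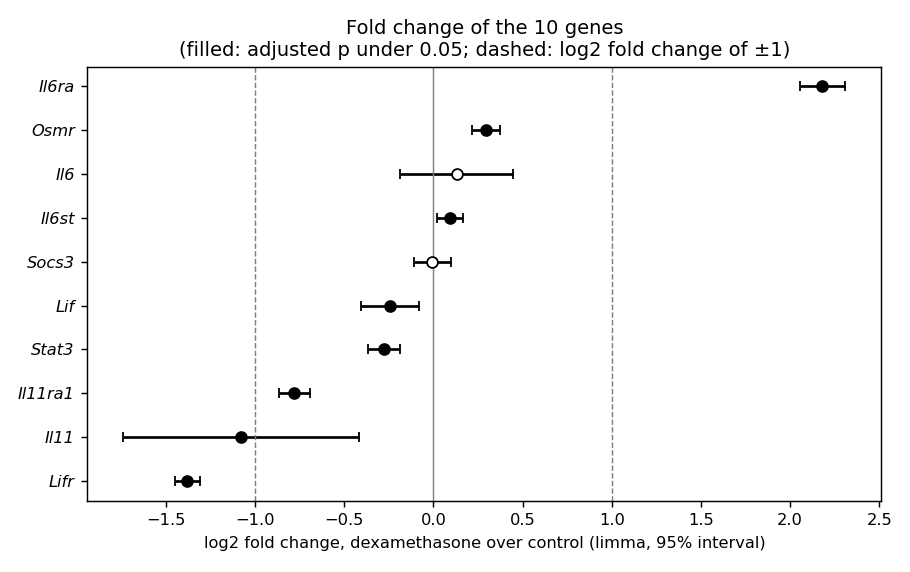
Log2 fold change (dexamethasone over control) of each gene with its 95% interval from limma; filled points had an adjusted p under 0.05, and dashed lines mark the limits of -1 and 1. Il6ra at 2.18 and Lifr at -1.38 lie farthest from 0, and Il11 at -1.08 has the widest interval.

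Downstream of the receptors, Stat3, the transcription factor that carries the signal to the nucleus, had 11883, 12823 and 11982 normalized counts in the control libraries. It had 10855, 9499 and 9978 in the dexamethasone libraries, each below the lowest control library. The log2 fold change was -0.28 (standard error 0.04, adjusted p = 3.49e-06), and 0.756% of its exon bases overlap Stat5a on the opposite strand.

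Socs3, the STAT3-induced inhibitor of gp130 signalling, had 2219.9, 2415 and 2189.9 normalized counts in the control libraries and 2393, 2119 and 2283 in the dexamethasone libraries. The groups overlapped, with means of 2275 ± 122 and 2265 ± 138 (SD, n = 3). The log2 fold change was -0.01 with a 95% interval of -0.11 to 0.10 (adjusted p = 0.911). With the libraries at the same total it was -0.12 (adjusted p = 0.0125), a setting that shifted the median of all genes to -0.11, and after quantile normalization, which shifted that median to -0.07, it was -0.16 (adjusted p = 0.00179).

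Levels of different genes were compared as reads per kilobase of exon, divided by the library total (RPKM), which scales every library to the same total and uses the exon lengths of GENCODE M21. In the control libraries Il6st was the most abundant at 29.7 ± 0.06 (SD, n = 3), followed by Lifr at 18.6, Stat3 at 16.5, Il11ra1 at 14.7, Socs3 at 10.1 and Osmr at 6.81. Lif followed at 1.23, Il6ra at 0.548 ± 0.02, Il6 at 0.487 ± 0.06 and Il11 at 0.154. Between neighbours in this order, the library ranges overlapped for Il6ra and Il6 and for no other pair. Thus the control libraries held much gp130, LIF receptor and IL-11 receptor transcript, and little of the ligands or of Il6ra.

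With dexamethasone Il6st stayed first at 29.2 ± 0.11 (SD, n = 3), followed by Stat3 at 12.6, Socs3 at 9.30, Il11ra1 at 7.90 ± 0.30, Osmr at 7.71 ± 0.10 and Lifr at 6.59. Il6ra stood at 2.30, above Lif at 0.958, Il6 at 0.494 and Il11 at 0.064. The ranges of Il11ra1 and Osmr overlapped, and those of the other neighbours did not. On this scale Lifr moved from place 2 to place 6, behind Osmr, and Il6ra moved past Lif.

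**Figure D3:**
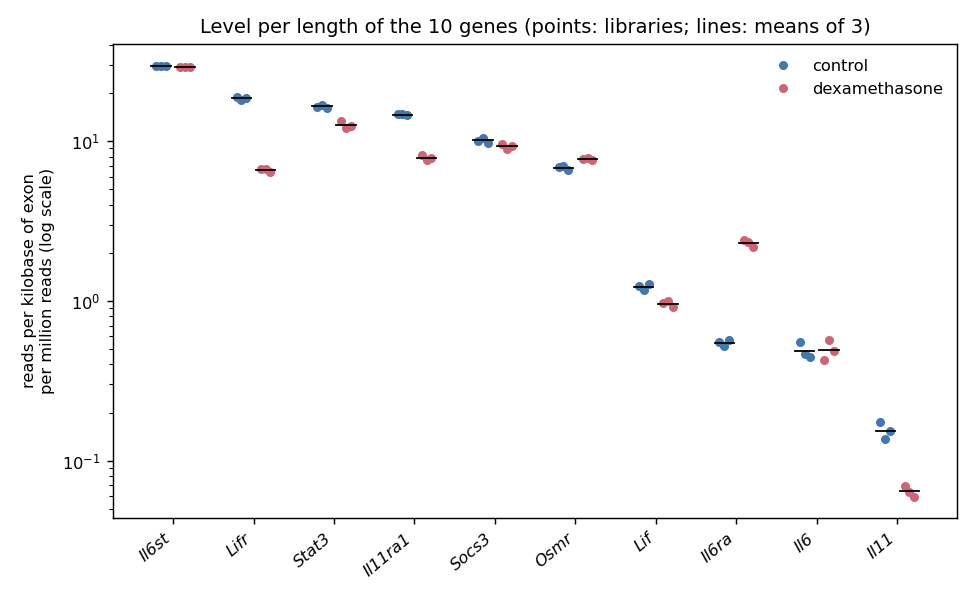
RPKM (log axis) of the 10 genes, ordered by the control mean; points are the 3 control (blue) and 3 dexamethasone (red) libraries and short lines their means. Il6st stayed near 29 in both groups, Lifr dropped from 18.6 to 6.59, below Osmr at 7.71, and Il6ra climbed from 0.548 to 2.30.

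The ratio of 2 genes within a library does not depend on the factor by which that library is scaled, though quantile normalization would alter it. Lifr had 2.75, 2.60 and 2.84 times the level per length of Osmr in control replicates 1, 2 and 3, and 0.865, 0.861 and 0.837 times in dexamethasone replicates 1, 2 and 3. The ratio thus passed from above 1 to below 1, a 3.19-fold decrease of its mean. Relative to Il6st, Il6ra went from 0.0185 ± 0.0007 to 0.0787 ± 0.0038 (SD, n = 3), and Lifr from 0.625 ± 0.011 to 0.225 ± 0.006. Il11ra1 went from 0.494 to 0.27 relative to Il6st, and Osmr from 0.229 to 0.264. The ratio of Socs3 to Stat3 was 0.602 to 0.621 in the control and 0.727 to 0.754 in the dexamethasone libraries. None of these 6 ratios overlapped between the groups. Each ratio holds at least 1 gene whose own groups did not overlap, so this separation adds no support of its own. The groups also did not overlap for 74.7% of all tested genes. For each ratio the smallest p-value of an exact two-sided permutation test with 3 against 3 libraries is 0.1.

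RefSeq promoter windows (GRCm38.p6), here the 250 bases before each annotated start, were found for all 10 genes, 13 windows in all. Each was searched on both strands for the STAT palindrome TTCNNNGAA and for the palindromic glucocorticoid response element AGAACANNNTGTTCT, which read the same on either strand. No window of the 10 genes held both. The STAT palindrome lay in 1 of the 13 windows, that of Socs3, and in 7.02% of all 32851 windows, and the glucocorticoid element in 0 of the 13 and in 0.00913% of all. Shown are Socs3, the textbook STAT3 target of the axis, with its match in capitals starting 154 bases before the annotated start, and Il6ra, the gene with the largest rise, which held neither motif. The match is a description of these letters and not evidence of a bound site. The glucocorticoid element lay in only 3 of the 32851 windows, so its absence from the 13 says nothing about regulation by glucocorticoids.

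Socs3, chr11:117969367-117969616 (GRCm38.p6, minus strand): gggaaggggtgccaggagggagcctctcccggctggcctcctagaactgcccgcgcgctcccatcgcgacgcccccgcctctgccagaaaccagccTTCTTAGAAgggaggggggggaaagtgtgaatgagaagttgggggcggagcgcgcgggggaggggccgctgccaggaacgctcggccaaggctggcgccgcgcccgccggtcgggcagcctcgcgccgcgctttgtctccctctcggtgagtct

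Il6ra, chr3:89913197-89913446 (GRCm38.p6, minus strand): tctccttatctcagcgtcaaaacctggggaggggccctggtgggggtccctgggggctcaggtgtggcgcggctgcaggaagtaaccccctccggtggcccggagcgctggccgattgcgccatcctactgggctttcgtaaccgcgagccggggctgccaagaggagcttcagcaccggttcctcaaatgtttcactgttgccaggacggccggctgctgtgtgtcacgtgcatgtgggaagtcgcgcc

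These windows held 71.6% G or C with 26 CpG pairs for Socs3 and 65.2% with 18 for Il6ra. Of the other windows of the genes that changed most, the upstream window of Lifr held 82.4% G or C with 43 CpG pairs, and the downstream window 50.8% with 3.

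The other ligands and receptors of the gp130 family, a list of 13 genes of which 12 were in the table, mostly had too few reads to be tested. Clcf1, a secreted ligand that acts through the CNTF receptor with LIFR and gp130, rose. Clcf1 had 1003, 953 and 943 normalized counts in the control libraries and 4311, 4130.1 and 4230.2 in the dexamethasone libraries, a log2 fold change of 2.13 (standard error 0.04, adjusted p = 4.24e-23). Every dexamethasone library lay above every control library.

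Several other genes of that list were low. Cntfr, which encodes the CNTF receptor subunit, had 7.63 to 22.9 normalized counts in the 6 libraries (log2 fold change -0.16, 95% interval -1.06 to 0.75, adjusted p = 0.762). Cntf had 12.3 to 30.5 (log2 fold change 0.39, adjusted p = 0.306). Osm, the ligand of OSMR, had at most 1.96 normalized counts in any library, and Ctf2, Ebi3 and Il31 were likewise at 3 reads or fewer in every library. Ctf1, Il27, Il27ra and Il31ra, at most 8.72 normalized counts in any library, were not tested either. A count of 0 allows up to 3 reads in each library, and this limit covers counting error only.

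Of the 10 JAK kinases and other STATs, 9 were tested, 3 rose, 4 fell and none was differentially expressed, with a median log2 fold change of -0.07. The 7 of 9 past the test stand beside 72.5% of all tested genes, and the 0 called beside 22.3%. The main kinases of gp130, Jak1 and Jak2, had log2 fold changes of -0.07 (adjusted p = 0.061) and 0.02 (adjusted p = 0.677). Jak1 passed with edgeR (adjusted p = 0.00335) and DESeq2 (adjusted p = 0.00906) on the recovered reads. Without control replicate 1 or dexamethasone replicate 1 Jak1 passed the test, at -0.09 (adjusted p = 0.0457) and -0.10 (adjusted p = 0.00928). With the libraries at the same total Jak1 was at -0.19 and Jak2 at -0.09, with adjusted p-values of 1.78e-06 and 0.0185. Tyk2 rose by a log2 value of 0.23, and Stat6, which serves IL-4, by 0.24. Stat2, known from interferon signalling, had a log2 fold change of -0.29 (adjusted p = 3.39e-06), and Jak3, the kinase of the common gamma chain, one of -0.41 (adjusted p = 6.78e-07). Stat5b and Stat5a, at 0.12 and -0.11, changed little, and Stat4 had at most 1.96 normalized counts. Stat5b was at 0.006 (adjusted p = 0.866) at the same total and at -0.028 after quantile normalization. With TMM scaling Stat5a had an adjusted p of 0.0504. It also lost its call without control replicate 2 (adjusted p = 0.106), control replicate 3 (0.103), dexamethasone replicate 2 (0.123) or dexamethasone replicate 3 (0.168).

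Of the 15 inhibitors of JAK-STAT signalling, all tested, 9 rose and 3 fell, with 2 differentially expressed upward and 1 downward and a median log2 fold change of 0.17. Over all tested genes 37.2% rose, 35.2% fell and 22.3% were differentially expressed, so that 3 of 15 is near the background. Socs5, a less studied member of the SOCS family, rose from 6476 to 6783 normalized counts up to 17382 to 18123, a log2 fold change of 1.42 (standard error 0.03, adjusted p = 1.39e-21). Ptpn1, a phosphatase that acts on JAK kinases, had a log2 fold change of 1.02 (adjusted p = 3.77e-17), and Socs4 one of 0.27. Ptpn1 fell short of the limit of 1 at the same total (0.91), after quantile normalization (0.83), with edgeR (0.998) and without dexamethasone replicate 1 (0.98). Ptprd, a receptor phosphatase known to act on STAT3, fell from 1539 to 1598 down to 666 to 770 normalized counts, a log2 fold change of -1.15 (adjusted p = 3.97e-15). The groups did not overlap for any of these 4 inhibitors, for 12 of the 15 in the list, and for 74.7% of all tested genes.

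Of 22 genes known as STAT3 targets, 21 were in the table and 18 had enough reads to be tested. Of these, 14 rose, 2 fell and 9 were differentially expressed, all 9 upward, with a median log2 fold change of 1.15 (range -0.77 to 6.38). Several of them are also known to respond to glucocorticoids, among them Lcn2, Hp, Serpina3n and Cebpd, and Birc5 follows cell division, so the list is not specific to STAT3. Over all tested genes 37.2% rose, 35.2% fell and 22.3% were differentially expressed, 2037 of 17442 upward. Socs3 itself did not pass the test, as given above.

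Timp1, an inhibitor of metalloproteinases, had the highest mean of the targets over all 6 libraries, though not in the control libraries, where Ccnd1, Mcl1 and Hif1a had more. It stood at 7465, 7688 and 7601 normalized counts in the control libraries. Timp1 reached 138710.0, 148898 and 156273 in the dexamethasone libraries, a log2 fold change of 4.28 (standard error 0.04, adjusted p = 1.97e-29). Ccnd1, which encodes cyclin D1, and Mcl1, a survival factor, had log2 fold changes of 0.55 and 0.49 (adjusted p = 4.56e-11 and 1.63e-11). Hp, the acute-phase protein haptoglobin, had the highest, 6.38, from 10.8 to 13.8 up to 1042 to 1160 normalized counts (adjusted p = 8.92e-23). Hif1a, the hypoxia-inducible factor, had the lowest, -0.77, from 12777 to 13206 down to 7540 to 7780 (adjusted p = 3.46e-16).

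**Figure D4:**
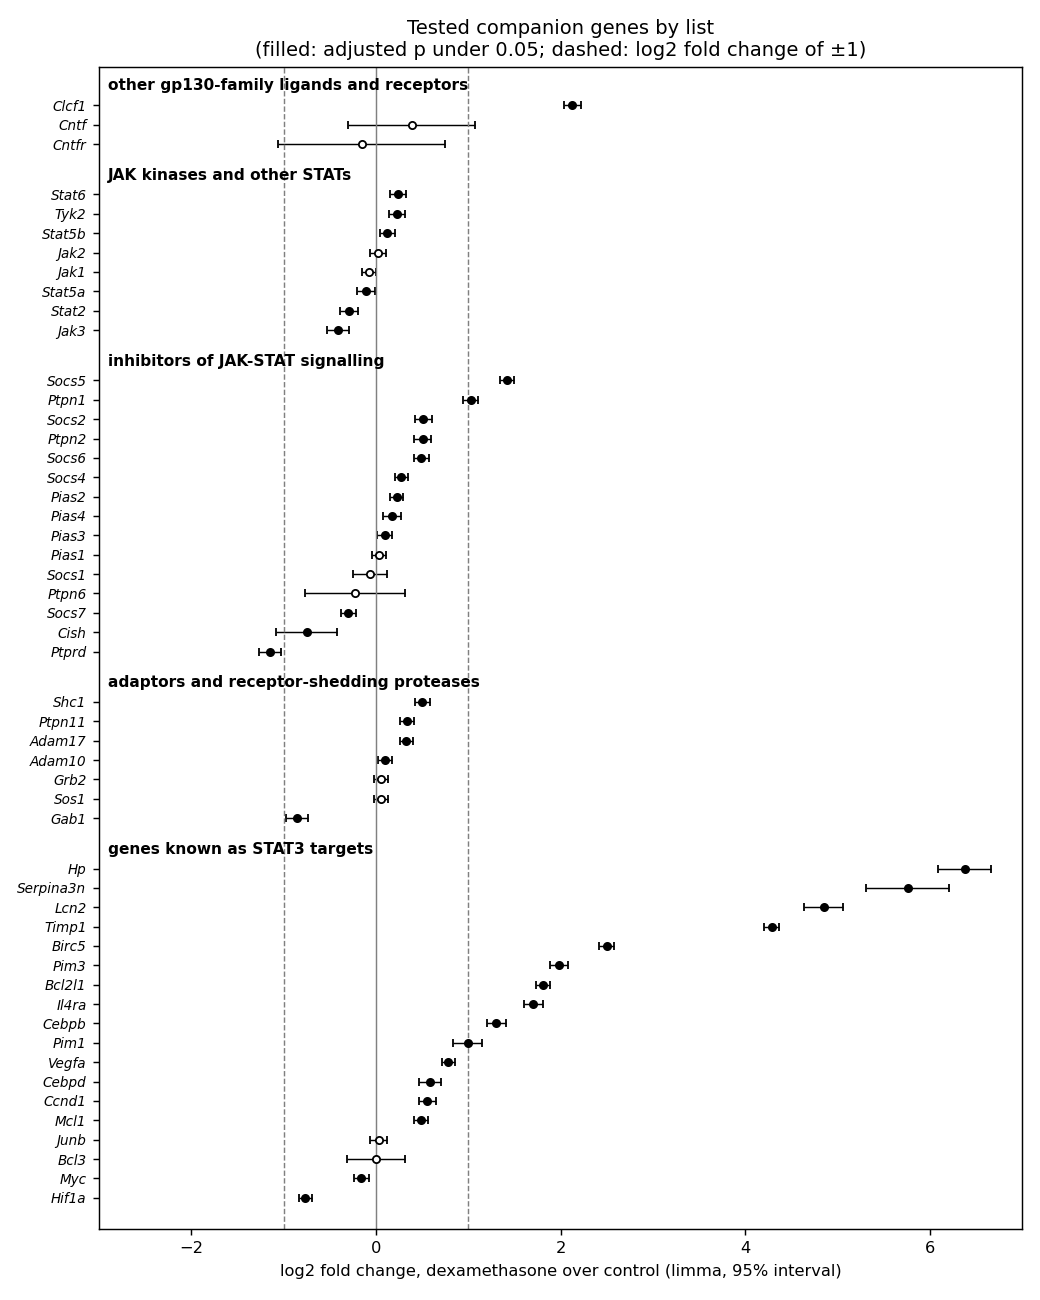
Log2 fold change (dexamethasone over control, with 95% intervals from limma) of tested genes of the 5 companion lists; filled points had an adjusted p under 0.05, and dashed lines mark the limits of -1 and 1. Clcf1 at 2.13 heads the ligands and receptors, the kinases and STATs shown stay between -0.41 and 0.24, and 4 STAT3 targets lie above 4.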

How the data were processed

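RNA sequencing of 6 libraries, 3 per group, was used. According to the methods and the submitters' processing notes, the libraries came from a stranded mRNA kit, reads were aligned and counted per gene with STAR 2.7.10a on GRCm39, and counts were normalized with DESeq2 1.36.0. Which annotation release was used, and how strand was set in counting, is not given in the sources used here. Per gene and library the deposited table holds a signal, the authors' read count over a size factor of the library (normalized counts). Whole reads were recovered for 100% of the values (tolerance 0.01), giving 72596611 to 89910728 reads per library, and 0 columns were left out.

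Symbols, exon lengths and overlaps came from GENCODE M21, on another build than the authors' (28103 of 29616 identifiers had a symbol). No coordinates are therefore given on the authors' build, and those of the promoter windows are on GRCm38.p6. Log2(normalized count + 1) was compared with limma 3.58.1 (eBayes with trend, R 4.3.3) over 17442 genes with a mean of at least 10, with Benjamini-Hochberg adjustment over all of them. A gene rose or fell at an adjusted p under 0.05, and was differentially expressed with a log2 fold change of at least 1 as well. The fold changes are on the log2(value + 1) scale, which understates those of low genes. Genes named are the 10 members, all genes of the ligand and receptor list and of the kinase and STAT list, and in each list the 3 highest means and the highest and lowest fold change; any other gene was picked with its values in view. Some genes of these lists are not reported here. The members, lists and tests were chosen with earlier results of these data known. Results were recomputed with edgeR 4.0.16 or DESeq2 1.42.0 applied to recovered reads, with limma lacking the trend, with a replicate block, with different filters, scalings and pseudocounts, and leaving out each library. The scripts were tested on simulated data.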

Additional observations from a re-analysis of the deposited data

How the results depend on the processing

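The 3 differentially expressed members were 2 to 3 over the alternatives that keep the limit on the fold change, and 3 without any single library. By construction the count was 8 when that limit was dropped, as it was 12645 over all genes and 42 over the companion genes, against 3894 and 14. Over all genes it was 2170 at a mean of at least 100, and 3888 to 3922 when a library was left out. The members past the test alone numbered 7 to 8 throughout, with 2 higher and 6 lower rather than 3 and 5 at the same total and after quantile normalization. For the companion genes the count was 13 to 17 without single libraries. With edgeR and DESeq2 on the recovered reads 3 members were called. Of the calls over all genes 2037 were higher and 1857 lower, against 1777 and 2165 with libraries at equal totals, and 1350 and 820 where means under 100 were removed.

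Replicate numbers did not pair libraries (correlations of same-numbered deviations -0.10, -0.10 and -0.02). With the replicate block 3897 genes, 3 members and 14 companion genes were called, and 7 members passed the test alone, Il6st being lost (adjusted p = 0.114).

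Of the named genes, 6 with small changes reversed, and the cause was not tested. At the same total these were Il6st (-0.0224), Jak2 (-0.0936) and Adam10 (-0.0177). After quantile normalization they were Il6st (-0.0368), Jak2 (-0.184), Stat5b (-0.028) and Adam10 (-0.12). Socs3 went to 0.0056 with TMM scaling and Jak2 to -0.0043 with edgeR. Without single libraries Socs3 ran from -0.0474 to 0.0404, Cntfr from -0.631 to 0.104 and Jak2 from -0.0258 to 0.0582. Il11 and Il6 gave no value at a mean of at least 100. Il11 rests on 9 to 30 reads per library.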

Other observations

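Transcripts of proteins that link gp130 to other pathways or release its receptors from the cell surface were measured in the same libraries. Of 8 adaptors and receptor-shedding proteases, 7 were tested, 4 rose, 1 fell and none was differentially expressed, with a median log2 fold change of 0.10, where 37.2% of all tested genes rose, 35.2% fell and 22.3% were differentially expressed. Ptpn11 (SHP2), the phosphatase that docks on gp130 and leads to Ras signalling, had 16092, 16899 and 16653 normalized counts in the control libraries and 21716, 20406 and 20398 in the dexamethasone libraries, a log2 fold change of 0.33 (adjusted p = 1.34e-08). Shc1 had the highest, 0.50, and Gab1, a docking partner of SHP2, the lowest, -0.86 (adjusted p = 1.65e-12), from 2771, 3045 and 2736 down to 1681, 1650.3 and 1394.

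Adam17 and Adam10, proteases able to cleave the IL-6 receptor from the membrane, had log2 fold changes of 0.33 (adjusted p = 1.29e-08) and 0.10 (adjusted p = 0.017). Adam10 was at -0.0177 at the same total, at -0.12 after quantile normalization, and short of the test without control replicate 1 (adjusted p = 0.0874) or control replicate 3 (0.0655). Soluble receptor was not measured here.

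Among STAT3 targets too low for the test, the acute-phase gene Saa3 had at most 3 reads in each control library. It had 12.4, 15.3 and 18.6 normalized counts in the dexamethasone libraries, on 13 to 16 reads. Their mean was 5.56-fold higher than 3 reads per control library, without allowance for counting error. Icam1 had 4 to 7 reads in the control and 11 to 15 in the dexamethasone libraries. Lrg1 overlapped between the groups, with 4 to 13 and 2 to 11 reads.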
